A study of Mus musculus with 8 samples.

Results

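The 10 genes described here are Trp53, which encodes the transcription factor p53, 7 genes of its circuit (Mdm2, Ccng1, Gadd45a, Trp53inp1, Phlda3, Bax and Bbc3), and the polo-like kinase genes Plk2 and Plk3. They are 10 of the 23284 genes listed in the series, and all 10 reached the level required for testing. They were chosen by symbol, with earlier results of these libraries known, and the high Plk2 values after glucose are part of why Plk2 is among them. Their changes between treated and PBS libraries are therefore given as a description, and a call among them supports nothing. Adjusted p values of members are printed only for the difference of the effects and for the PBS pairs.

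Lineage- Sca-1+ c-Kit+ (LSK) cells, the marrow fraction that contains haematopoietic stem cells and multipotent progenitors, were sorted from C57BL/6 male mice aged 12 to 13 weeks. Mice that had fasted overnight, for more than 14 hours, received an intravenous injection on each of 7 days, and marrow of femurs and tibias was taken on day 8. The groups were glucose at 2 g/kg (replicates 1 and 2, letters A and B), glucose at 2 g/kg with a 20% lipid emulsion at 6 mL/kg (replicates 1 and 2, letters H and I), and PBS (replicates 1 to 4, letters H, I, J and K; the pairs are written PBS H/I and PBS J/K). All mice were of the same strain, and no allele differed between groups. RNA came from about 10000 sorted cells, and the sources used here do not say whether a library is 1 mouse or a pool. PBS H/I were set against glucose with lipid, whose letters they share, and PBS J/K against glucose, by elimination. This assignment is inferred from names, so values against the other pair are also given for most of the members. The p-values measure the spread between these libraries, which the titles call biological replicates.

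In unstressed cells p53 protein is held low by Mdm2, a ubiquitin ligase that is itself a p53 target, so the pair forms a feedback loop. DNA damage and other stresses stabilise p53, which then raises genes that stop the cell cycle (Cdkn1a, Gadd45a, Ccng1), genes that promote cell death (Bax, Bbc3) and genes that restrain growth signalling (Phlda3). In haematopoietic stem cells p53 is known for its part in quiescence and in the response to DNA damage. Plk2 and Plk3 belong to the polo-like kinases, were first described as genes induced by serum or growth factors, and have also been described as p53 targets. The protein's activity is set largely after transcription, and none of the values below measures it.

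The stretches printed next show which members carry a p53 decamer and which carry a cAMP response element (CRE) just before their RefSeq start. RefSeq windows on GRCm38.p6, from 250 bases before to 50 after the start, were given for 9 of the 10 members and searched on both strands. Trp53inp1 is named only. Capitals mark a match to the p53 decamer, the repeated unit of the consensus p53 site, in 60 bases before the starts of Trp53 (chr11:69580259-69580318, plus strand), Mdm2 (chr10:117710910-117710969, minus strand), Ccng1 (chr11:40755437-40755496, minus strand), Gadd45a (chr6:67037413-67037472, minus strand) and Bax (chr7:45467065-45467124, minus strand).
Trp53: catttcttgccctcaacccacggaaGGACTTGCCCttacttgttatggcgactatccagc
Mdm2: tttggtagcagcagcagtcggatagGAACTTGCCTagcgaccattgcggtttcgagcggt
Ccng1: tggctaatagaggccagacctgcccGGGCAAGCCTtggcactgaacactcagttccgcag
Gadd45a: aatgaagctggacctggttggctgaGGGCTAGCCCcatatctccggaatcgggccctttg
Bax: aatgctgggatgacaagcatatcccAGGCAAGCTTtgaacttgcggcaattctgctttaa

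The decamer was matched in the windows of these 5 members and not in those of Phlda3, Bbc3, Plk2 or Plk3, and 8.36% of all 32851 promoter windows hold a match. No member's window held a pair of decamers 0 to 13 bases apart, the layout of a full site, against 0.0731% of all windows. The known p53 sites of Mdm2 lie in an intron, outside the window searched. Cdkn1a, no member but the best known p53 target, had 2 RefSeq windows, and that at chr17:29093519-29093818 held no decamer. From the other window 80 bases on chr17:29090879-29090958 (plus strand) are shown for comparison. In these, 2 decamers, again in capitals, lie close together.
Cdkn1a: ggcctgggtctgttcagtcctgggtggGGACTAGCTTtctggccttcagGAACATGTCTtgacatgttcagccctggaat

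The 250 bases before the Plk2 start (chr13:110394794-110395043, plus strand) held no p53 decamer and 1 palindromic CRE, TGACGTCA, 62 to 55 bases before the start, in capitals. A CRE occurs in 1.79% of all windows and in no other member's. The 90 bases of Plk3 (chr4:117134014-117134103, minus strand) hold the shorter TGACG at 2 places, in capitals, a stretch found in 20.8% of all windows and contained in the CRE. That stretch was also matched in the windows of Mdm2, Bbc3 and Plk2, on either strand. Neither the AP-1 motif TGANTCA (7.81% of all windows) nor the CArG box (1.63%) was matched in a member's window. Btg2, an antiproliferative gene and p53 target outside the 10, also held TGACGTCA, in capitals in its 60 bases (chr1:134079286-134079345, minus strand). Cdkn1a held neither TGACGTCA nor TGACG in its windows. These matches describe the letters only, and their bearing on the levels was not tested.
Plk2: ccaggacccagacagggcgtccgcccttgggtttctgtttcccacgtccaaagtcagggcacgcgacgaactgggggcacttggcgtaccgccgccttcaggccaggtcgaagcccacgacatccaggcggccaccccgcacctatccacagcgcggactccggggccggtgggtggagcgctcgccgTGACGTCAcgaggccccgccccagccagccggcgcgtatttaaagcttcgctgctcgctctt
Plk3: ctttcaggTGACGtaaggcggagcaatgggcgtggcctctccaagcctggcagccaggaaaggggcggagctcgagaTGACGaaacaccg
Btg2: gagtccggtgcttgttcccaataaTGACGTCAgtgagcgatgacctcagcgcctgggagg

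The library depth, estimated from the smallest steps between low values, was about 5830000 to 8640000 fragments, and 11186 to 11771 genes reached 1 FPKM (fragments per kilobase of transcript, scaled to library size) per library. The LSK label was borne out by its markers: all 10 stem and progenitor markers were above 1 FPKM in every library, with summed levels of 1627 to 2059 FPKM in treated and 1650 to 1795 FPKM in PBS libraries. Replicate 1 of glucose with lipid stood apart. Its 8 neutrophil markers summed to 64792 FPKM, against 160.7 FPKM in the other library of that group, 143.1 and 216.7 FPKM after glucose, and 137 to 440.4 FPKM in the 4 PBS libraries, although the sort was for lineage-negative cells. S100a8, an abundant neutrophil alarmin, was at 35390 FPKM there. The same library also had the highest sum of macrophage markers (6 genes, 216.3 FPKM, against 19.4 to 32.7 FPKM elsewhere), of B and plasma cell markers (5 genes, 186.1 FPKM, against 38.1 to 71.2 FPKM) and of erythroid markers (7 genes, 1997 FPKM, against 272.1 to 1193 FPKM). T and NK cell markers summed to 422.7 FPKM in it, of which Nkg7 made up 406.9 FPKM, and to 327.1 to 469.4 FPKM elsewhere. All 6 of these markers reached 1 FPKM in it, against 1 or 2 in each other library. Their median was 3.747 FPKM in it and at most 0.625 FPKM elsewhere. Where this library moved a printed change of a member by over 1.5 times, the value without it is given too, as for some other genes.

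Across the 10 genes the level in PBS libraries spanned about 100-fold, and only Plk2 differed severalfold between treated and PBS libraries. Trp53 and Bax were the most abundant, at mean levels of 152 and 77.5 FPKM over the 4 PBS libraries, above 94.3% and 86.8% of the tested genes. Mdm2 and Ccng1 followed at 31.5 and 30.9 FPKM, and these neighbours overlapped between libraries. Plk2 at 11.4, Trp53inp1 at 7.9, Gadd45a at 6.98, Phlda3 at 5.32 and Plk3 at 4.2 FPKM lay close together, and the libraries of each overlapped with those of the next. Bbc3, which encodes the death factor PUMA, was lowest at 1.44 FPKM, above 8.5% of the tested genes. These are levels per transcript length, so genes can be compared only roughly, and how fully the reads of each gene were counted was not tested.

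**Figure D1:**
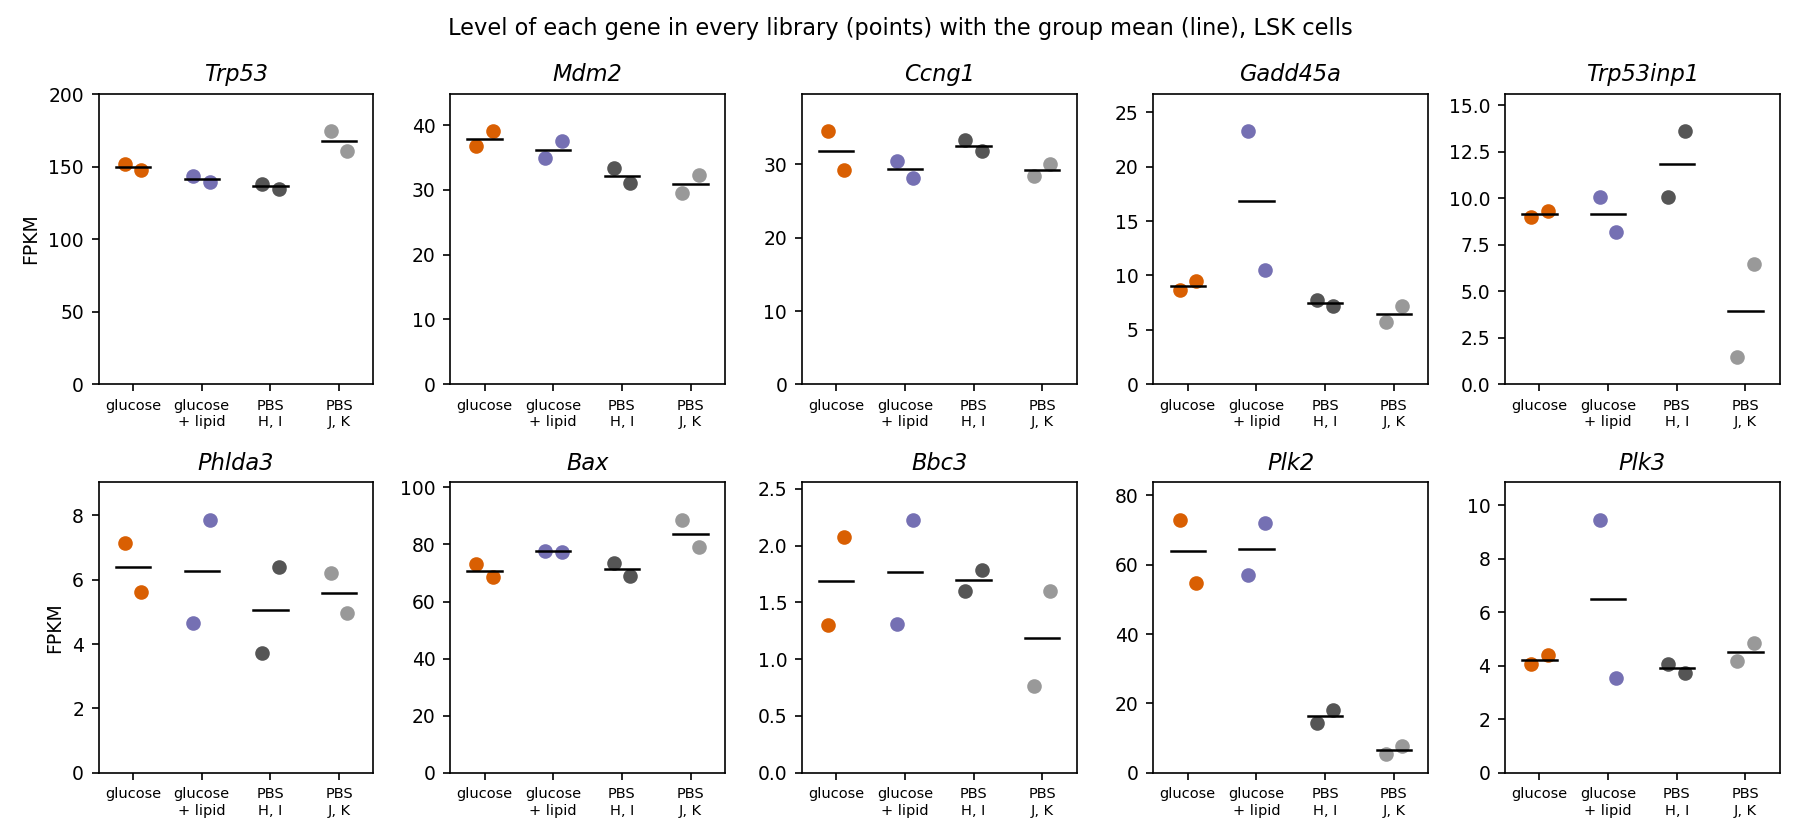
FPKM (y axis, from 0) of each of the 10 genes in every library (points) with the mean of each group of 2 libraries (line), for glucose, glucose with lipid, PBS H/I, and PBS J/K (x axis). Plk2 lies between 54.9 and 72.9 FPKM in the 4 treated libraries and between 5.28 and 18.1 FPKM in the 4 PBS libraries, while Trp53, Ccng1 and Bax stay within narrow ranges.

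Trp53 itself, the transcription factor at the head of the circuit, was after neither treatment higher than in both PBS pairs. It stood at 152.1 and 148.2 FPKM after glucose and 143.7 and 139.5 FPKM after glucose with lipid, against 138.5 and 134.5 FPKM in PBS H/I and 174.5 and 160.9 FPKM in PBS J/K. The treated libraries lay inside the range of the PBS libraries, and PBS J/K were the highest of all. The log2 fold change (of FPKM + 1, as all below) was -0.16 ± 0.09 (SE) for glucose against PBS J/K and 0.05 ± 0.09 for glucose with lipid against PBS H/I, and with all 4 treated against all 4 PBS libraries it was -0.05 ± 0.08. Both directions turned against the other PBS pair, to 0.14 for glucose and -0.24 for glucose with lipid. Without replicate 1 of glucose with lipid the change of that group was 0.03, and that over all treated libraries -0.08. Trp53 lies on GRCm38 chromosome 11 at 69580359 to 69591873 (GENCODE vM21).

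Mdm2, the ubiquitin ligase and feedback inhibitor of p53, was slightly higher in every treated library. It was at 36.7 and 39 FPKM after glucose and 34.9 and 37.5 FPKM after glucose with lipid, against 33.3 and 31 FPKM in PBS H/I and 29.5 and 32.3 FPKM in PBS J/K. All 4 treated libraries lay above all 4 PBS libraries, with a mean 1.17 times as high and a log2 fold change of 0.23 ± 0.08. Over all tested genes 3.55% had all 4 treated above all 4 PBS libraries and 2.84% had all 4 below; 3 of the 10 members (Mdm2, Gadd45a and Plk2) were in the first class and 0 in the second. The members were chosen with these comparisons known, so nothing is read from that count. Mdm2 over Trp53, as a ratio of FPKM within a library, was 0.241 and 0.263 after glucose and 0.243 and 0.269 after glucose with lipid, against 0.241 and 0.23 in PBS H/I and 0.169 and 0.201 in PBS J/K.

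The arrest genes of the circuit differed from each other. Ccng1, a cyclin that binds a phosphatase acting on Mdm2, was at 34.5 and 29.3 FPKM after glucose and 30.5 and 28.2 FPKM after glucose with lipid, against 33.3 and 31.8 FPKM in PBS H/I and 28.5 and 30.1 FPKM in PBS J/K. The treated libraries together overlapped the PBS libraries, with a log2 fold change of -0.02 ± 0.10. Both libraries of glucose with lipid were below both of PBS H/I (-0.15 ± 0.12), which were in turn above both of PBS J/K, and against PBS J/K the value was 0.00. The change of Ccng1 after glucose was 0.115 against PBS J/K and -0.034 against PBS H/I. Gadd45a, a stress-induced binder of cell cycle and MAP kinase proteins, was at 8.66 and 9.49 FPKM after glucose and 23.2 and 10.5 FPKM after glucose with lipid, against 7.71 and 7.24 FPKM in PBS H/I and 5.77 and 7.22 FPKM in PBS J/K. Every treated library was above every PBS library, and replicate 1 of glucose with lipid was far above the rest.

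For Gadd45a the log2 fold change of glucose with lipid was 0.98 ± 0.32, and 0.44 without replicate 1 of that group, the library with the neutrophil transcripts. Without replicate 2 it was 1.52 and Gadd45a was called. Over all treated against all PBS libraries it was 0.70 ± 0.23, and 0.44 without that library. After glucose, where the neutrophil markers summed to 143.1 and 216.7 FPKM, it was 0.43 ± 0.32, and 0.25 against PBS H/I. The part of the neutrophil transcripts in the value of 23.2 FPKM was not tested. E230016M11Rik, a transcript on the opposite strand, shares 337 of the 1764 exon bases of Gadd45a, and was at 1.06 and 1.24 FPKM after glucose and 1.71 and 1.3 FPKM after glucose with lipid, against 0.614 and 0.722 FPKM in PBS H/I and 0.105 and 0.753 FPKM in PBS J/K. The sources used here do not say that counting used strand, so reads of the pair may be mixed.

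Trp53inp1, a p53-induced gene whose product acts in cell death and autophagy, differed more between the PBS pairs than after treatment. It was at 9.02 and 9.34 FPKM after glucose and 10.1 and 8.21 FPKM after glucose with lipid, against 10.1 and 13.6 FPKM in PBS H/I and 1.48 and 6.45 FPKM in PBS J/K. PBS replicate 3 was the lowest library and PBS replicate 2 the highest. The log2 fold change of glucose was 1.24 ± 0.45 against PBS J/K, 0.45 without PBS replicate 3, 2.04 without PBS replicate 4 (when it was called) and -0.32 when set against PBS H/I. That of glucose with lipid was -0.33 ± 0.45 against PBS H/I and 1.23 when set against PBS J/K.

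The genes of cell death and growth restraint showed no common direction. Phlda3, which competes with Akt for membrane lipids, was at 7.14 and 5.62 FPKM after glucose and 4.66 and 7.86 FPKM after glucose with lipid, against 3.71 and 6.39 FPKM in PBS H/I and 6.22 and 4.98 FPKM in PBS J/K, with all groups overlapping. Bax, which permeabilises the mitochondrial outer membrane, was at 73.1 and 68.6 FPKM after glucose and 77.9 and 77.4 FPKM after glucose with lipid, against 73.5 and 68.9 FPKM in PBS H/I and 88.6 and 79.1 FPKM in PBS J/K. Both glucose libraries were below PBS J/K and both libraries of glucose with lipid above PBS H/I. Its log2 fold changes were -0.24 ± 0.10 and 0.12 ± 0.10, and -0.06 ± 0.10 over all 8 libraries (-0.095 without replicate 1 of glucose with lipid). Against the other PBS pair they were -0.01 and -0.11, so the direction for glucose with lipid turned.

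Bbc3 was at 1.3 and 2.08 FPKM after glucose and 1.31 and 2.23 FPKM after glucose with lipid, against 1.6 and 1.79 FPKM in PBS H/I and 0.766 and 1.6 FPKM in PBS J/K. At the estimated depths and the longest annotated transcript these values stand for only about 8 to 35 fragments per library (8.39 in PBS replicate 3 and 34.9 in replicate 2 of glucose with lipid). The size of change that could be detected at such numbers was not tested. The log2 fold changes of Phlda3 and Bbc3 over all treated libraries were 0.21 ± 0.20 and 0.17 ± 0.21. Without replicate 1 of glucose with lipid they were 0.33 and 0.29. For Phlda3 the change of glucose was 0.160 against PBS J/K and 0.315 against PBS H/I. Its change after glucose with lipid was 0.263 against PBS H/I (0.586 without replicate 1 of that group) and 0.109 against PBS J/K. For Bbc3 the change of glucose was 0.31 against PBS J/K and -0.02 against PBS H/I. That of glucose with lipid was 0.02 against PBS H/I (0.26 without its replicate 1) and 0.35 against PBS J/K.

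Plk2, a kinase of centriole duplication and stress signalling, was the member that differed most. It was at 72.9 and 54.9 FPKM after glucose and 57.1 and 72.1 FPKM after glucose with lipid, against 14.5 and 18.1 FPKM in PBS H/I and 5.28 and 7.66 FPKM in PBS J/K. The lowest treated library was about 3 times as high as the highest PBS library. The treated groups had nearly the same mean, 63.9 ± 12.8 FPKM after glucose and 64.6 ± 10.6 FPKM after glucose with lipid (SD, n = 2 each), whereas PBS H/I averaged 16.3 ± 2.57 FPKM and PBS J/K 6.47 ± 1.68 FPKM. Plk2 spans 110395046 to 110400844 on chromosome 13.

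The mean of Plk2 after glucose was 9.87 times that of PBS J/K, and 3.92 times that of PBS H/I. After glucose with lipid it was 3.97 times that of PBS H/I and 9.99 times that of PBS J/K. The choice of control pair thus moved the ratio more than the choice of treatment did. On the log2 scale the changes were 3.12 ± 0.22 for glucose against PBS J/K, 1.92 ± 0.22 for glucose with lipid against PBS H/I, and 2.52 ± 0.25 for all treated against all PBS libraries. Leaving out each library in turn gave 2.31 to 2.71 for the last of these. In replicate 1 of glucose with lipid, with its neutrophil transcripts, Plk2 was lower (57.1 FPKM) than in replicate 2 (72.1 FPKM), and without replicate 1 the change for that group was 2.09.

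Plk3, the relative of Plk2 with a role in stress and DNA damage responses, did not share its pattern. It was at 4.05 and 4.41 FPKM after glucose and 9.45 and 3.55 FPKM after glucose with lipid, against 4.07 and 3.73 FPKM in PBS H/I and 4.18 and 4.84 FPKM in PBS J/K. Replicate 1 of glucose with lipid was the highest library and replicate 2 of that group the lowest, the glucose libraries lay within the range of the PBS libraries, and both PBS J/K libraries were above both PBS H/I libraries. The log2 fold change was -0.07 ± 0.35 for glucose against PBS J/K, and 0.09 against PBS H/I. That of glucose with lipid was 0.49 ± 0.35 against PBS H/I, -0.11 without replicate 1, and 0.325 against PBS J/K. Plk3 shares 84 of its 2531 exon bases with Tctex1d4 on the opposite strand, which was below 1 FPKM in every library.

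**Figure D2:**
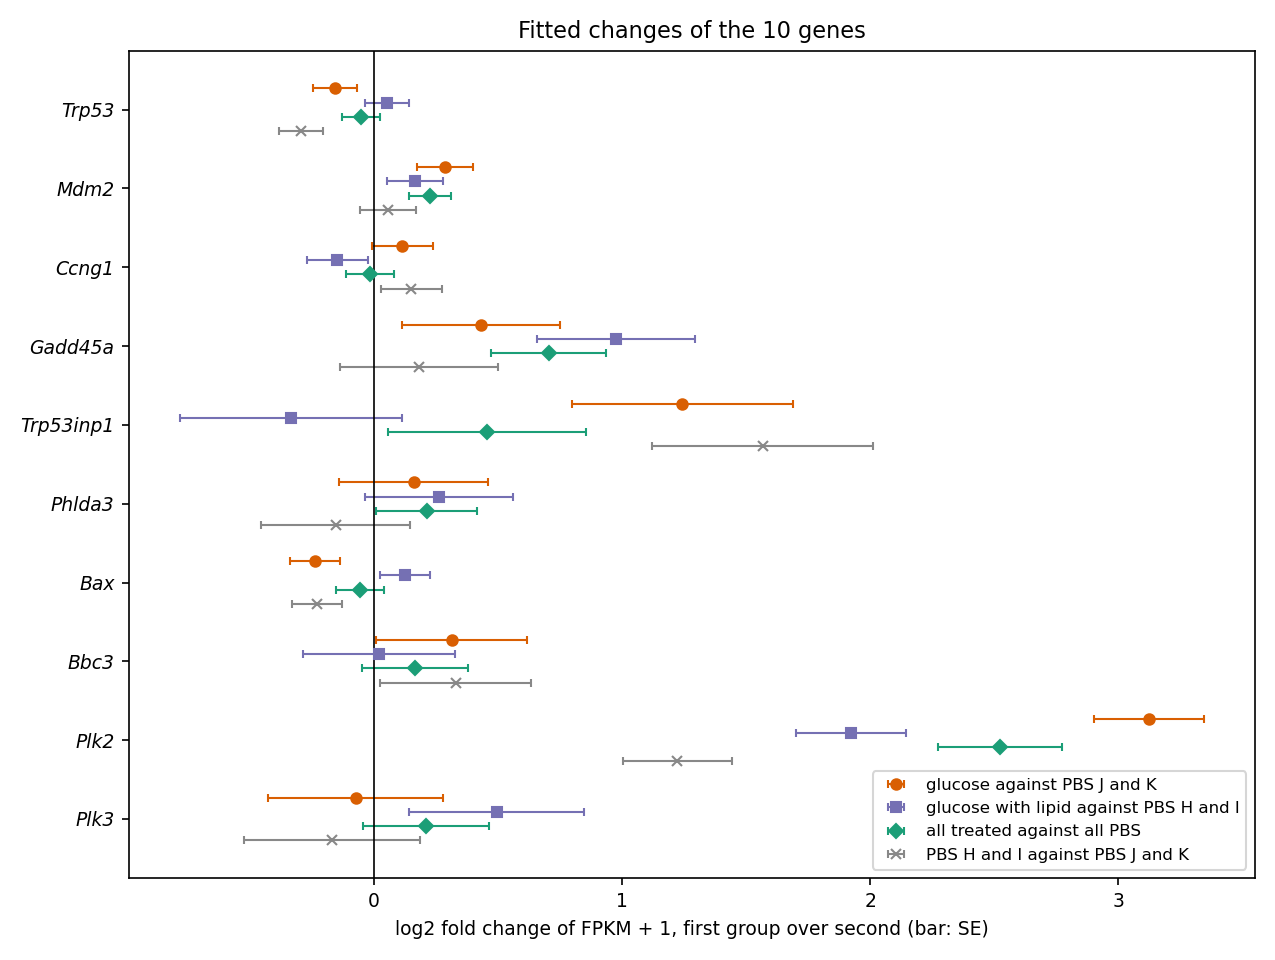
Log2 fold change of FPKM + 1 (x axis, first group over second, bars SE) of each gene (rows) in 3 treated against PBS comparisons and between the PBS pairs. Plk2 lies at 3.12, 1.92 and 2.52 in the treated comparisons and at 1.22 between PBS H/I and PBS J/K, and Trp53inp1 at 1.24 and -0.33 in the treated comparisons and 1.57 between the PBS pairs.

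Of the 10 members 1, Plk2, passed an adjusted p of 0.05 over the 11931 genes tested in each treated against PBS comparison. The shares of all tested genes that passed were 0.101% for glucose against PBS J/K, 0.0754% for glucose with lipid against PBS H/I, and 0.268% for all treated against all PBS. Plk2 was chosen with these calls known, so the count has no further meaning. The median log2 fold change of the 10 members was 0.22, 0.14 and 0.21 in these comparisons, against -0.01 to 0.01 over all tested genes. The call of Plk2 in glucose with lipid was lost in 5 of the 8 fits with 1 library left out (without either glucose library, PBS replicate 1 or 2, or replicate 1 of its own group) and with no filter on low values, at log2 fold changes of 1.77 to 2.09.

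Whether the effects of both treatments differed was tested by the difference of their effects, glucose with lipid minus glucose. No member passed (0.0168% of all tested genes did). For Plk2 the difference was -1.20 ± 0.31 (adjusted p = 0.301, limma), for Trp53inp1 -1.58 ± 0.63 (adjusted p = 0.387), for Bax 0.36 ± 0.14 (adjusted p = 0.382) and for Trp53 0.21 ± 0.12 (adjusted p = 0.526). At an unadjusted p under 0.05 stood 3 of the 10 (Plk2, Trp53inp1 and Bax), as did 1456 of all tested genes. The Plk2 levels after both treatments were nearly equal and the PBS pairs were not.

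Between the PBS pairs no member passed, although some differed in level by more than 2-fold. PBS H/I were above PBS J/K in Plk2 by 1.22 ± 0.22 on the log2 scale (adjusted p = 0.1, limma) and in Trp53inp1 by 1.57 ± 0.45 (adjusted p = 0.169). Trp53 and Bax were lower in PBS H/I, at -0.29 ± 0.09 (adjusted p = 0.179) and -0.23 ± 0.10 (adjusted p = 0.298). Of all tested genes 0.0503% passed. Erythroid transcripts differed along with them. The globin gene Hba-a1 was at 164.2 and 134.2 FPKM in PBS H/I and 21.3 and 20.5 FPKM in PBS J/K (2.77 ± 0.26, adjusted p = 0.0173, limma), and Alas2, an enzyme of haem synthesis, was at 4.4 and 4.66 FPKM against 0.349 and 0.432 FPKM (1.99 ± 0.42, adjusted p = 0.117). The sum of 7 erythroid markers was 605 and 615.3 FPKM in PBS H/I and 545.4 and 273.9 FPKM in PBS J/K. For all treated against all PBS libraries Hba-a1 passed as higher (1.56 ± 0.19, adjusted p = 0.0115, limma), and 6 of the 7 markers lay above 0. The SE and adjusted p of that change rest on the inferred control pairs, and its size does not. After glucose Hba-a1 was at 48.6 and 65 FPKM, above PBS J/K but below PBS H/I. Hbb-b2, another globin gene, was at 2.31 and 0.0321 FPKM after glucose, against 38.9 to 109.9 FPKM in PBS libraries. The part of erythroid transcripts in the members' differences was not tested. Plk2 after treatment was still above the higher PBS pair in all 4 libraries, while the treated libraries of Trp53inp1 lay between the pairs. Control pair and any difference of handling day or run cannot be told apart.

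The other genes listed here as p53 targets mostly did not pass. Of 55 listed, 50 were tested, and 28 of these lay above 0 for all treated against all PBS libraries, with a median log2 fold change of 0.06. In that comparison 2 rose and 0 fell, both of them arrest genes. Cdkn1a, which encodes the kinase inhibitor p21, was at 57.1 and 54.4 FPKM after glucose and 51.4 and 49.9 FPKM after glucose with lipid, against 25.8 and 25.7 FPKM in PBS H/I and 16.6 and 19.6 FPKM in PBS J/K, and rose by 1.26 ± 0.13 (adjusted p = 0.00731, limma; 0.0509 without glucose replicate 2). Btg2 was at 65.8 and 77.2 FPKM after glucose and 101.7 and 81.6 FPKM after glucose with lipid, against 24.3 and 22.4 FPKM in PBS H/I and 9.95 and 18.8 FPKM in PBS J/K, and rose by 2.11 ± 0.19 (adjusted p = 0.00275). The lists were drawn up with both genes' changes known, so these calls are no independent support.

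By group, 11 cell cycle targets were tested, 15 cell death targets and 24 DNA repair and metabolism targets. Besides Cdkn1a and Btg2 none of them passed in any comparison. All 4 treated libraries were above all 4 PBS libraries for 5 of the 50, beside 3.55% of all tested genes, and they were Cdkn1a, Btg2, the survival gene Ier3, Sertad1 (named after its values were seen) and Ephx1, an epoxide hydrolase. Ier3 was at 148 ± 20.3 FPKM in treated and 88.4 ± 19.9 FPKM in PBS libraries (SD, n = 4 each; log2 fold change 0.76 ± 0.16, adjusted p = 0.157, limma). Ephx1 was at 2.91 ± 0.314 and 1.7 ± 0.577 FPKM in the same order (0.55 ± 0.19, adjusted p = 0.357).

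Among the cell death targets those with the largest change were Pmaip1 (a BH3-only death factor, log2 fold change 0.91 ± 0.45, adjusted p = 0.473, limma), the death receptor Fas (0.71 ± 0.39, adjusted p = 0.516) and Phlda1 (0.62 ± 0.21, adjusted p = 0.349). Without replicate 1 of glucose with lipid the values were 0.48, 0.34 and 0.49, so that the order changed. None of the 3 passed, and Fas averaged 1.83 FPKM in treated and 0.58 FPKM in PBS libraries. Of the repair and metabolism targets, the mTORC1 inhibitor genes Sesn2 and Ddit4 had 0.37 ± 0.13 (adjusted p = 0.348) and 0.53 ± 0.23 (adjusted p = 0.43). Among 22 tested relatives and regulators of p53 none passed and 12 lay above 0, with a median of 0.03. The checkpoint kinase gene Chek1 had -0.39 ± 0.17 (adjusted p = 0.434), the ribosomal gene Rpl5, whose product can bind Mdm2, -0.36 ± 0.18 (adjusted p = 0.476), and Hipk2, a kinase of p53, 0.30 ± 0.18 (adjusted p = 0.545). Rpl5 averaged only 4.09 FPKM in treated and 5.57 FPKM in PBS libraries, and how fully its reads were counted was not tested.

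The nearest relatives of the members did not follow Plk2 either. The mitotic kinase gene Plk1 was at 24.3 ± 4.57 FPKM in treated and 28.8 ± 3.79 FPKM in PBS libraries (SD, n = 4 each; log2 fold change -0.24 ± 0.11, adjusted p = 0.454, limma). Plk4, the kinase that starts centriole duplication, was at 23.1 ± 0.706 and 26.9 ± 1.97 FPKM in the same order (-0.21 ± 0.09, adjusted p = 0.408), and its 4 treated libraries lay below all 4 PBS libraries. Of 3 Gadd45 relatives none passed: Gadd45b had 0.45 ± 0.18 (adjusted p = 0.408), Gadd45g 0.49 ± 0.34 (adjusted p = 0.597) and Gadd45gip1 -0.06 ± 0.11 (adjusted p = 0.875). Gadd45g was at 10.1 FPKM in replicate 1 of glucose with lipid and at 2.07 to 4.68 FPKM elsewhere, and without that library its change was 0.15. Trp53inp2 was at 9.41 FPKM in that library and at 0.347 to 1.73 FPKM in the other 7, with a log2 fold change over all treated libraries of 0.82 ± 0.52 (adjusted p = 0.563) and 0.19 without it. Ccng2, an unconventional cyclin, had 0.35 ± 0.25 (adjusted p = 0.606) and Phlda2 -0.37 ± 0.17 (adjusted p = 0.462). Both differed between the PBS pairs. Ccng2 was at 25 to 26.8 FPKM in treated libraries, 32.6 and 27 FPKM in PBS H/I and 9.61 and 18.2 FPKM in PBS J/K. Without PBS replicate 3 its change was 0.072. Phlda2 was at 9.06 to 13.8 FPKM in treated libraries, 10.2 and 10 FPKM in PBS H/I and 21.3 and 14.7 FPKM in PBS J/K.

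**Figure D3:**
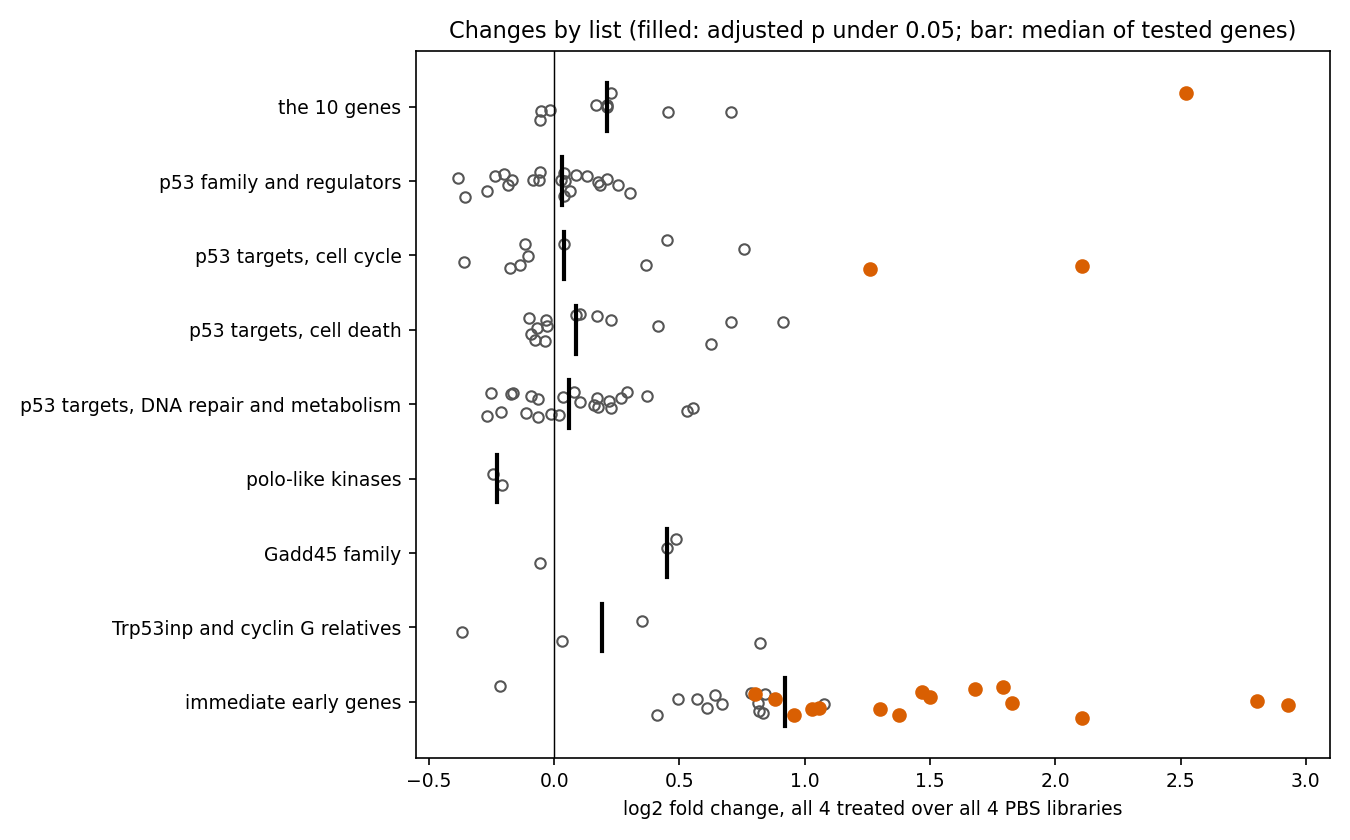
Log2 fold change of all 4 treated over all 4 PBS libraries (x axis) of every tested gene of each list (rows), filled where the adjusted p over all genes is under 0.05, with the median of each list as a bar. The p53 lists have medians of 0.03 to 0.09 with Cdkn1a and Btg2 to the right, and the immediate early genes a median of 0.92, with Plk2 at 2.52 in the top row.

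Plk2 lay among the immediate early genes, which respond within minutes to growth factors, to stress and also to the handling of cells. Of 28 tested genes of this list, 15 rose and 0 fell in all treated against all PBS libraries, beside 0.268% of all tested genes that passed. The 28 had a median log2 fold change of 0.92. All 4 treated libraries were above all 4 PBS libraries for 23 of the 28, beside 3.55% of all tested genes. Of the 15, 6 kept the call without glucose replicate 2, 8 without PBS replicate 1, 9 without PBS replicate 2 and 10 to 13 without any other library, all with positive values. Btg2, Atf3, Nr4a1, Dusp5, Sik1 and Nfkbiz kept it in all 8 fits. The nuclear receptor gene Nr4a1 rose by 2.81 ± 0.22 (adjusted p = 0.00146, limma), the stress factor gene Atf3 by 2.93 ± 0.31 (adjusted p = 0.00731), the phosphatase gene Dusp5 by 1.79 ± 0.11 (adjusted p = 0.000285) and Fos by 1.38 ± 0.16 (adjusted p = 0.0115). The other genes of the list that rose were Fosl2, Junb, Ier2, Dusp1, Zfp36, Klf2, Klf6, Ppp1r15a, Sik1, Nfkbiz and Btg2, by 0.80 (Ier2) to 2.11 (Btg2), with adjusted p values of at most 0.0323. Btg2 is a member of this list as well as of the p53 targets. The list was known from earlier results to be high after treatment, and the part of cell handling in it was not tested.

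Over the 8 libraries the genes with the pattern most like that of Plk2, among 9170 others with a mean of at least 3 FPKM, were Cdkn1a (Pearson r = 0.989, Spearman rho = 0.881), the splicing factor gene Srsf5 (r = 0.985, rho = 0.952), Ppp1r15a, which directs a phosphatase to eIF2alpha (r = 0.984, rho = 0.810), Nfkbiz, an inhibitor of kappa B relative (r = 0.982, rho = 0.857), and Fam110a (r = 0.979, rho = 0.976). For Plk3 they were Cd52 (r = 0.985, rho = 0.952), Cd300lb (r = 0.983, rho = 0.833), Itprip (r = 0.979, rho = 0.738), Ltb4r1 (r = 0.977, rho = 0.786) and Tyrobp (r = 0.974, rho = 0.857), an adaptor of myeloid receptors, which spanned 88.9 to 999 FPKM. For Trp53inp1 they were Ubap1 (r = 0.974, rho = 0.905), Lpar6 (r = 0.973, rho = 0.690), the autophagy kinase gene Ulk1 (r = 0.972, rho = 0.976), Tceanc (r = 0.972, rho = 0.786) and Map3k1 (r = 0.971, rho = 0.905). The libraries behind each r share their treatment, control pair and depth, and the points are few, so these are descriptions without a test. Without replicate 1 of glucose with lipid, an alternative chosen after seeing the data, the r values of Plk3 were 0.896, 0.779, 0.799, 0.691 and 0.620 in the order given, while those of Plk2 and Trp53inp1 were 0.971 to 0.996.

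**Figure D4:**
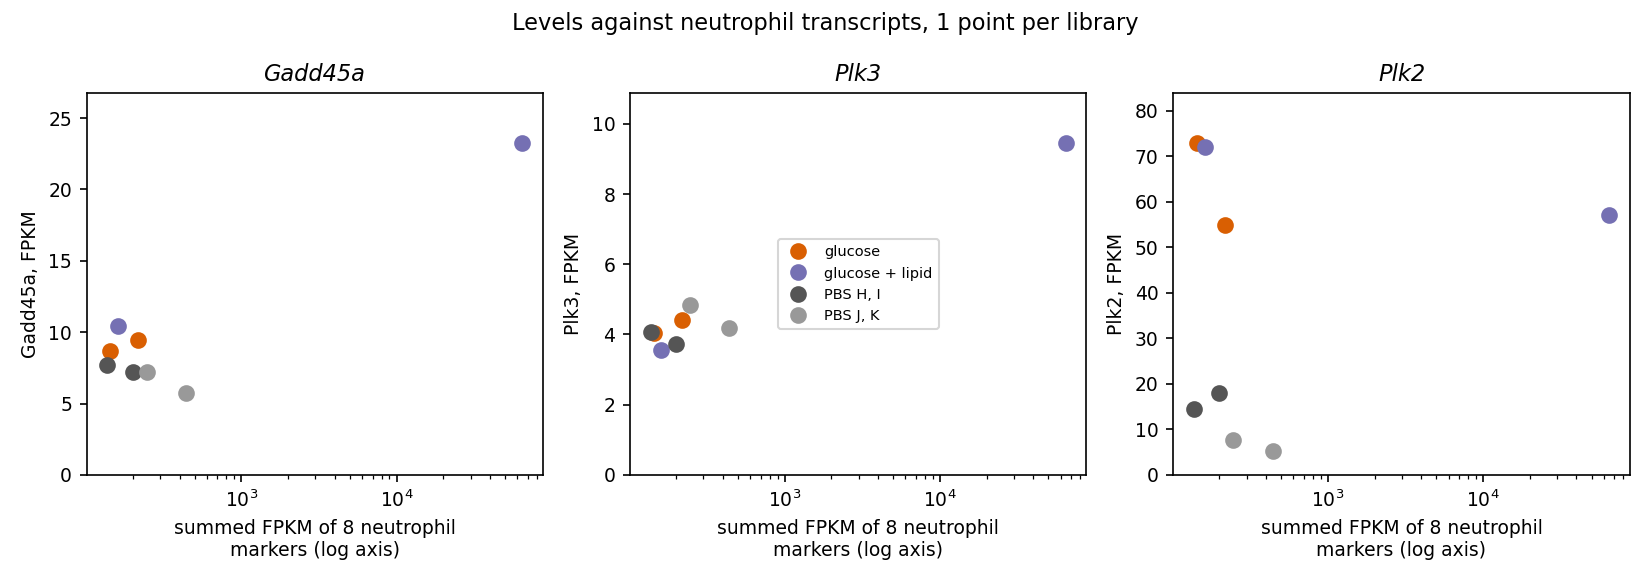
FPKM of Gadd45a, Plk3 and Plk2 (y axes, from 0) against the summed FPKM of 8 neutrophil markers (x axis, log scale), with 1 point per library. Replicate 1 of glucose with lipid, at 64792 FPKM of neutrophil markers, has the highest Gadd45a (23.2 FPKM) and Plk3 (9.45 FPKM), while its Plk2 (57.1 FPKM) lies within the range of the other treated libraries.

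Among the members themselves, Mdm2 and Plk2 moved most alike with a positive sign over the 8 libraries (r = 0.88). Without replicate 1 of glucose with lipid their r was 0.904, and Gadd45a then had higher values with both. These were 0.940 with Mdm2 (0.478 over the 8 libraries) and 0.914 with Plk2 (0.647 over the 8 libraries). For Gadd45a and Plk3 r was 0.83, but -0.33 over the other 7 libraries, so it rested on that replicate. Trp53 and Trp53inp1 ran opposite to each other (r = -0.89), as did Trp53inp1 and Bax (r = -0.87). In PBS J/K Trp53 and Bax were highest and Trp53inp1 lowest, and the part of this pair in the r values was not tested. These are descriptions over 8 libraries that share control pairs and treatments. In bulk RNA of a sorted fraction, more cells that hold a transcript and more of it per cell cannot be told apart, and this applies to every level above.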

How the data were processed

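Per the labels' protocols, RNA of sorted LSK cells was made into cDNA with SMART-Seq HT and into libraries with Nextera XT. TopHat2 2.0.13, Bowtie2 2.2.3, SAMtools 1.0, Cuffnorm 2.2.1 and mm10 are named in the submitters' processing notes. The deposited values are FPKM that the authors made, 1 per gene and library; the unit follows from the tool and the values, and no source used here gives the annotation or the library scaling. Mir682, a microRNA gene, took 18.5% to 24.2% of the summed FPKM.

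Depth was estimated from value steps at genes with 1 annotated transcript (68 to 167 genes per library); no counting interval was derived. The 11931 genes that reached 1 FPKM in 2 or more libraries were fitted as log2(FPKM + 1) in limma 3.58.1 (R 4.3.3), with a mean-variance trend, all 8 libraries, 4 groups and 4 residual degrees of freedom; all treated against all PBS used the control set as a block, with 5. P-values are 2-sided, Benjamini-Hochberg adjusted over all tested genes, with a threshold of 0.05. The fit was tested on simulated data. Of the file's symbols 20911 matched GENCODE vM21.

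The members, lists and comparisons were chosen with earlier results of these data known. Genes named beyond the 10 are those of the lists that passed in any comparison or had the 3 largest changes per list, and the 5 most alike to Plk2, Plk3 and Trp53inp1. Alternatives were another pseudocount, other filters, median ratio scaling, crossed controls, a replicate block, no control set block, and each library left out.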

Additional observations from a re-analysis of the deposited data

Results flagged for a closer look

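For 3 members both glucose libraries lay on one side of PBS J/K while both libraries of glucose with lipid lay on the other side of PBS H/I. These were Trp53 and Bax, lower after glucose and higher after glucose with lipid (differences of the effects 0.21 and 0.36 on the log2 scale), and Trp53inp1, with the opposite signs (-1.577). The difference did not pass for any of them (adjusted p = 0.526, 0.382 and 0.387 in limma). In each case the log2 difference between the PBS pairs, H/I minus J/K, was in the direction that gives these signs, -0.29, -0.23 and 1.57, and against the other PBS pair the changes after glucose and after glucose with lipid were 0.14 and -0.24 for Trp53, -0.01 and -0.11 for Bax, and -0.32 and 1.23 for Trp53inp1, so all turned except that of Bax after glucose. No library among the 4 PBS libraries stood apart in any of the 10 genes by Dixon's 95% limit.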

How the results depend on the processing

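The number of genes called in either direction was 12 for glucose, 9 for glucose with lipid, 2 for the difference of the effects, 6 between the PBS pairs and 32 for all treated. It moved by over 1.5 times with a pseudocount of 0.1 for glucose (19), with no filter on low values for glucose with lipid (3), the PBS pairs (2) and all treated (17), and with crossed controls for glucose with lipid (28). Leaving out each library in turn gave 8 to 32 genes for glucose, 3 to 271 for glucose with lipid, 2 to 141 for the difference, 3 to 15 between the PBS pairs and 8 to 33 for all treated. The counts of 271 and 141 came without replicate 2 of glucose with lipid, when the library with neutrophil transcripts stood alone for its group and was assumed to vary like the others. For glucose the libraries that moved the count by over 1.5 times were both of glucose with lipid (32 each) and PBS replicate 4 (29); for glucose with lipid, besides its replicate 2, they were PBS replicates 1 to 4 (3, 5, 18 and 19). For the difference they were also glucose replicate 2 (6) and PBS replicates 1 to 4 (5, 4, 4 and 5), between the PBS pairs both libraries of glucose with lipid (14 and 15) and PBS replicate 2 (3), and for all treated glucose replicate 2 (8) and PBS replicates 1 and 2 (13 and 18). Of 635 values of the members under alternatives, 589 kept their call or moved by less than the spread within groups. Another 40, not called, moved more, 6 lost the call of Plk2 and 0 of the called values changed sign. A kept call could still move far. With crossed controls the Plk2 change went from 3.12 to 1.90 for glucose and from 1.92 to 3.14 for glucose with lipid. Of 584 values of the other named genes, 505 kept their call or moved by less than that spread, 77 lost a call and 2 moved. With letters H and I as a replicate block 11 genes were called for glucose with lipid, Plk2 among them (log2 fold change 1.92). The deviations of libraries with the same letter had a correlation of 0.046 over 10086 genes. In glucose with lipid these deviations include the neutrophil transcripts of replicate 1, so the value cannot decide whether the letters mark pairs. The cause of these shifts was not tested. With 2 libraries a group and 5830000 to 8640000 fragments a library, the size of change that could be detected in low genes such as Bbc3, Plk3 and Phlda3 was not tested.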
